A study of Oryza sativa with 12 samples.

Results

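Leaves of the rice (Oryza sativa) cultivar FR13A, a landrace known for its tolerance of complete flooding, were compared between seedlings held under water for 3 d and non-submerged controls. The comparison used 6 of the 12 arrays of the study, 3 submerged and 3 control, chosen by the genotype and treatment in the sample titles, and covered every gene that the array could measure in the leaf samples. The seedlings were 14 d old at the start. The water was 70 cm deep, and the shoot tips of the submerged FR13A plants lay 52.7 ± 2.3 cm below the surface, while controls stood in a tank with no water. Air was held between 24 and 28 °C and the water between 22 and 25 °C, so the submerged leaves were also in a cooler medium, which cannot be told apart from the flooding. Each sample was RNA from the leaves of about 20 plants, pooled over several pots, and the design text describes the 3 samples of a group as biological replicates. The other 6 arrays held the same treatments of a second cultivar, Goda Heenati. They entered the estimate of spread and one comparison at the end.

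Gas moves far more slowly through water than through air, so a flooded shoot runs short of oxygen and carbon dioxide while ethylene builds up inside it. Rice leaves are known to respond with fermentation, with the use of stored sugar and starch, and with shifts in ethylene, gibberellin and abscisic acid, the last of which otherwise restrains growth and directs the response to drying. A submerged leaf also stops transpiring, and so no longer pulls water through its vessels and the water channels of its membranes.

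Levels are log2 spot signal after subtraction of the array's 75th percentile, so that 0 marks a spot brighter than most on its array. They compare samples for a gene, not genes with each other. Differences are submerged minus control in log2 units. The standard error (SE) beside each comes from a linear model fitted by limma with 3 arrays per group, and p-values were adjusted over all genes by the Benjamini-Hochberg method. Genes count as called where the adjusted p was below 0.05 and the change reached 2-fold. The array gives loci, and the gene names come from general knowledge, kept only where the gene table placed the name on the chromosome of its locus. Each name should therefore be read with its locus.

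The FR13A arrays had 31316 to 34204 of their 42418 probes well above background, and 22724 genes were tested. On slide 1, scanned on another day, 1837 and 1860 probes were saturated, against 0 on the other FR13A arrays. All 4 groups were represented once on each of the 3 slides, and replicates of the same number shared a slide. Every FR13A control lay at slide position 1 and every submerged sample at position 2, so position and treatment cannot be told apart. Across genes, arrays correlated with r of 0.938 to 0.968 within an FR13A group and 0.813 to 0.907 between the groups. The leaf label was checked against marker lists, for signal only, since levels of different probes cannot be compared. All 9 measured genes of light harvesting, photosystems, electron carriers and carbon fixation were well above background on all 6 FR13A arrays, and 8 of them were saturated on both arrays of slide 1. The single meristem marker, OSH1, was well above background on 2 control and 3 submerged arrays and had mean levels of -5.87 and -5.49. The root markers LSI1 and IRT1 were above it on all 6 arrays and PT11 on 2 control and 3 submerged ones, with means between -6.32 and -1.05. None of the 3 was called, although all 3 passed with the replicate number as a block (adjusted p from 0.00419 to 0.0328). LSI1 was then lower and IRT1 and PT11 higher. Of all genes 21.8% were called, and 28.3% with the block. In whole leaves, a loss of cells of one type and a lower amount of a transcript per cell cannot be told apart.

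Many leaf transcripts changed under water, with more genes falling than rising. In all 4960 of 22724 genes (21.8%) were called, 2277 higher (10.0%) and 2683 lower (11.8%). Of those called, 2251 and 2657 differed in the same direction on all 3 slides. With no minimum fold 26.8% of genes passed. The 3 submerged and 3 control values did not overlap in 40.5% of all genes, with 20.2% higher and 20.3% lower under submergence, so a lack of overlap in a single gene below is common on these arrays. The larger changes were also numerous, with 236 genes at least 16-fold higher and 258 at least 16-fold lower. Past 64-fold, 76 were higher and 39 lower. Genes well above background on no control array and on all 3 submerged arrays numbered 244, of which 199 were among those called higher. The opposite held for 155 genes, of which 150 were among those called lower. Genes were also ordered by control level and cut into 4 equal groups. In the dimmest group 15.4% rose and 9.24% fell, and in the brightest 6.72% rose and 11.9% fell. The control level also enters the difference, so noise in the controls alone tilts the shares this way. A gene not well above background on every control array was tested only where another group had it well above background. The excess of falls over rises depended on the scaling. Of the calls, 45.9% were higher as reported, 56.3% with arrays scaled to their medians, which moved the median over all genes from 0.05 to 0.20, and 73.4% with normexp background correction.

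**Figure D1:**
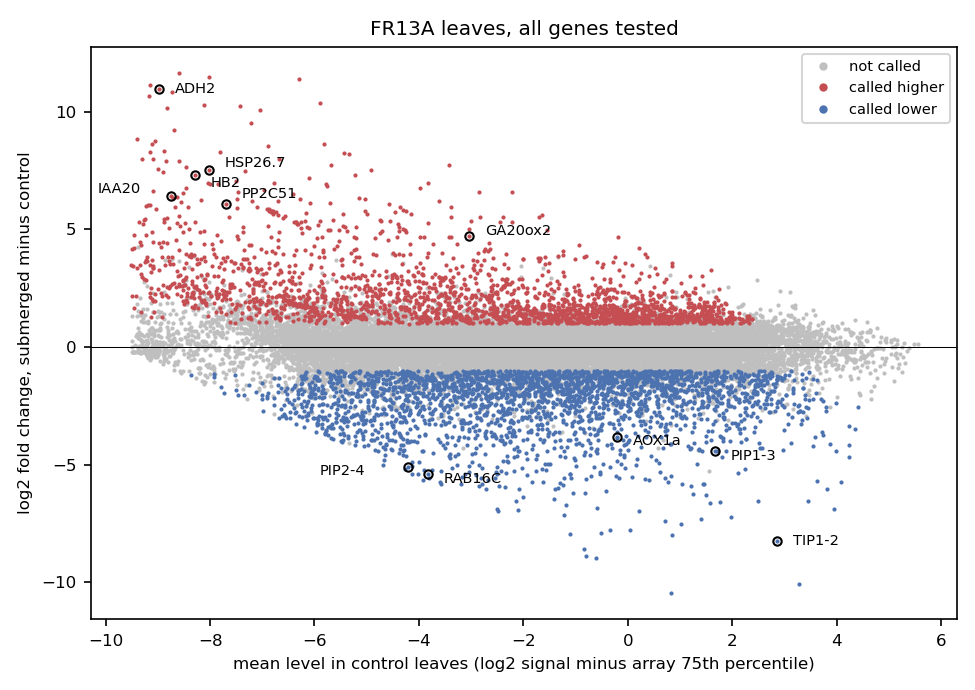
Log2 fold change (submerged minus control) against the mean control level, one point per gene, for 22724 genes of FR13A leaves. Red points are the 2277 genes called higher and blue points the 2683 called lower, and 11 named genes are circled. ADH2, with the largest rise of the named genes, starts from a low control level, while TIP1-2 falls from a high one.

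Of 259 measured genes on the 42 lists, 34 were called higher (13.1%), 39 lower (15.1%) and 186 neither, and all 73 called genes moved in the same direction on all 3 slides. The abscisic acid response list had the lowest median of the lists with at least 5 measured members, -2.83, and sucrose and starch breakdown the highest, 1.56. The median over all genes was 0.05.

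**Figure D2:**
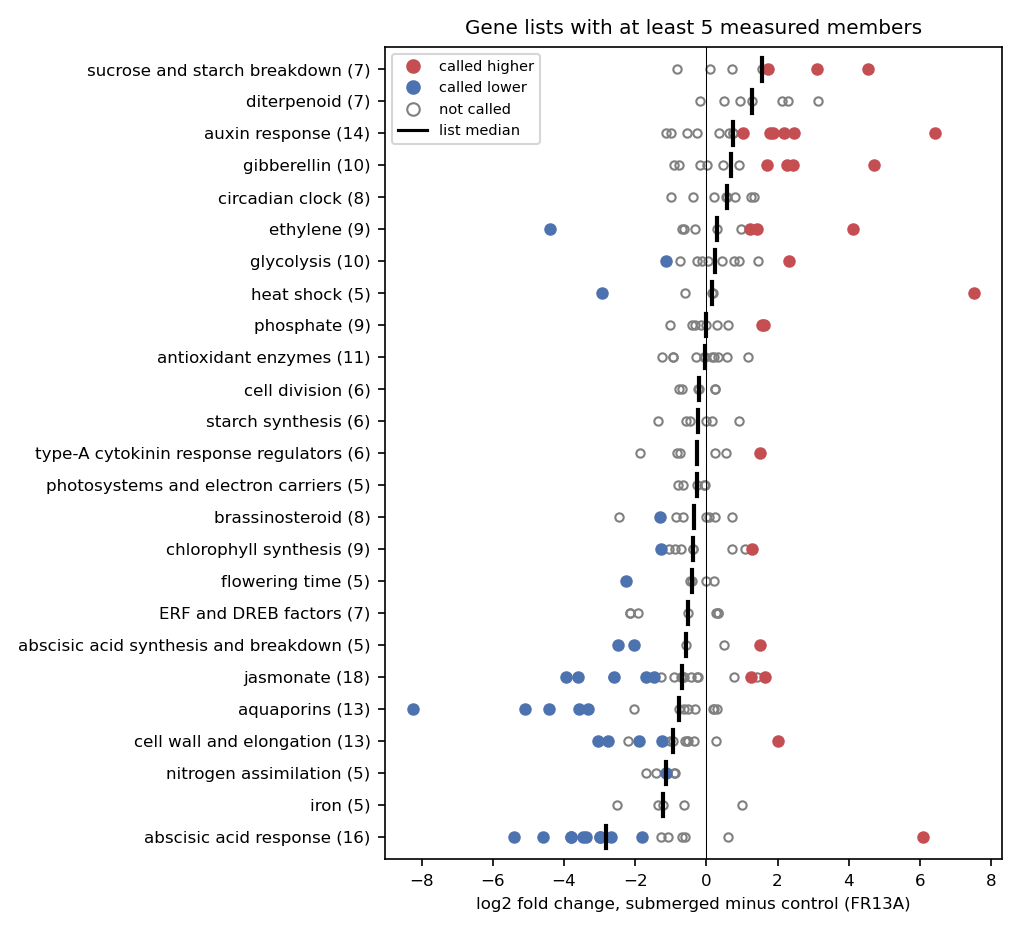
Log2 fold change of each measured member (points) of the gene lists with at least 5 measured members, sorted by the list median (black bar), with the number measured in brackets. Red is called higher, blue called lower and open not called. Abscisic acid response genes lie mostly to the left with PP2C51 alone at the far right, and no aquaporin or starch synthesis gene is called higher.

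Transcripts of the abscisic acid response fell together. Of 16 measured genes 10 fell, 1 rose and 5 did not pass, against 11.8% lower and 10.0% higher among all genes. They comprised dehydrins and late embryogenesis abundant proteins, which protect cells during drying, and type 2C protein phosphatases, which are induced by abscisic acid and dampen its signal. RAB16C (Os11g0454000), a dehydrin, was at -3.03, -3.21 and -5.25 on control replicates 1 to 3 and at -8.62, -9.04 and -10.04 on the submerged ones. All controls were well above background and no submerged array was, so the fall was at least 22.3-fold (limma adjusted p = 0.000377). The late embryogenesis abundant protein LEA3 (Os05g0542500) showed the same loss of signal. Its controls were at -3.78, -5.78 and -4.39 and its submerged samples at -9.13, -8.46 and -10.15, at least 12.6-fold lower (adjusted p = 0.00937). With normexp background correction neither was called, and the differences were -0.51 for RAB16C and 0.11 for LEA3 (adjusted p of 0.768 and 0.951). On submerged replicate 2 the normexp values had an SD of 1.16, against 4.04 for the processed signal. They correlated with that signal at r = 0.764, against at least 0.973 on the other arrays. This limits every normexp value given here and below, and its share in the lost calls was not tested. LIP9 (Os02g0669100), a second dehydrin that stayed measurable in both groups, was at 1.88, 2.06 and 2.47 in controls and -2.09, -1.31 and -0.61 under water. That is a difference of -3.47 ± 0.39 (adjusted p = 0.000187), and the groups were far apart. RAB16B (Os11g0454200) also fell, while its neighbour RAB16A (Os11g0454300) had a difference of -1.26 ± 0.81 (adjusted p = 0.281). These dehydrin genes are close relatives on one stretch of chromosome 11, and cross-hybridisation between them was not tested.

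The falls among the phosphatases ran from -3.80 to -1.81. PP2C08 (Os01g0656200) was at -0.13, 1.47 and 0.16 in controls and -3.85, -2.69 and -3.35 in submerged leaves, a difference of -3.80 ± 0.66 (adjusted p = 0.0023). PP2C49 (Os05g0457200) differed by -3.79 ± 1.08, PP2C30 (Os03g0268600) by -3.39 ± 0.67, PP2C06 (Os01g0583100) by -2.99 ± 0.50, PP2C09 (Os01g0846300) by -2.67 ± 0.54 and PP2C68 (Os09g0325700) by -1.81 ± 0.52, and all were called lower. One member of the family went the other way. PP2C51 (Os05g0572700) was not well above background on any control array, at -7.36, -8.31 and -7.39, and reached -2.38, -1.24 and -1.18 under submergence. It was at least 60.5-fold higher (adjusted p = 2.31e-05). The transcription factors bZIP23 (Os02g0766700) and TRAB1 (Os08g0472000), which bind the promoters of abscisic acid-responsive genes, had differences of -0.59 ± 0.25 and 0.61 ± 0.21 and were not called. PP2C49, well above background on 1 of 3 submerged arrays, rested on single arrays, and its call was lost without submerged replicate 1 (-3.24, adjusted p = 0.0924) or 2 (-2.90, 0.106) and without control replicate 1 (-3.72, 0.0689) or 2 (-3.52, 0.0684). With normexp PP2C49 (-0.92, 0.464) and PP2C08 (-2.94, 0.0559) were not called, while PP2C06 kept its call. PP2C68 lost its call without submerged replicate 1 (-1.51, 0.0974) or 2 (-1.81, 0.0762) or control replicate 1 (-1.53, 0.0937) or 2 (-1.73, 0.0665). Without slide 1, with 2 arrays left per group, 5 of the list were called lower and 1 higher, and the adjusted p was 0.127 for LEA3, 0.101 for PP2C30 and 0.102 for PP2C09.

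Genes that make or remove abscisic acid changed in both directions. ABA8ox2 (Os08g0472800), one of the hydroxylases that break the hormone down, rose by 1.50 ± 0.30 (adjusted p = 0.00495), while its paralog ABA8ox3 (Os09g0457100) fell, with a difference of -2.47 ± 0.69 (adjusted p = 0.0240). ABA8ox1 (Os02g0703600), known in rice as a hydroxylase raised by ethylene under water, was at -0.12, 0.32 and 4.14 in controls and 2.13, 2.33 and 1.35 in submerged leaves. Control replicate 3 stood far above the other controls, and the difference of 0.49 ± 1.08 did not pass (adjusted p = 0.773). Without that array the difference was 1.84, but it was -0.29 without control replicate 1, -0.07 without control replicate 2 and -0.39 without slide 1. ZEP (Os04g0448900), zeaxanthin epoxidase, which acts early in synthesis, had a difference of -2.04 ± 0.59 (adjusted p = 0.0279). For NCED3 (Os03g0645900), the dioxygenase of the committed step, it was -0.58 ± 0.35 (adjusted p = 0.248). The call of ABA8ox3 was lost without any of 5 of the 6 arrays, all but submerged replicate 3 (adjusted p from 0.0515 to 0.0967). That of ZEP was lost without control replicate 2 or 3 or submerged replicate 1 or 2 (0.0749 to 0.0998).

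Water channels showed the largest fall of any named gene. Aquaporins form pores for water in the plasma membrane (PIP) and the vacuole membrane (TIP). Of 13 measured 5 fell and none rose, against 11.8% lower and 10.0% higher among all genes. TIP1-2 (Os01g0975900) was at 2.42, 2.48 and 3.68 in controls and -6.11, -5.54 and -4.50 under submergence. The signal stayed well above background on all arrays and the groups lay far apart, and the difference was -8.24 ± 0.53 (adjusted p = 6.46e-06). PIP2-4 (Os07g0448100) was at -5.89, -4.70 and -2.03 in controls and not well above background on any submerged array, at -9.00, -9.24 and -9.65, at least 17.1-fold lower (adjusted p = 0.00248). PIP1-3 (Os02g0823100) fell from 1.22, 1.17 and 2.63 to -3.34, -4.04 and -0.87, a difference of -4.43 ± 1.02 (adjusted p = 0.00975). PIP2-2 (Os02g0629200) differed by -3.59 ± 1.01 and PIP2-5 (Os07g0448200), next to PIP2-4 on chromosome 7, by -3.33 ± 0.78. Cross-hybridisation between these neighbours was not tested. With normexp the differences were -0.31 for PIP2-4 and -0.41 for PIP2-5 (adjusted p of 0.88 and 0.803).

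The other 8 water channels did not pass. PIP2-7 had a difference of -2.03 ± 1.07 and was lower with the replicate block (adjusted p = 0.0481). PIP1-1 (Os02g0666200), PIP1-2 (Os04g0559700), TIP1-1 (Os03g0146100) and TIP4-1 (Os05g0231700) had differences between -0.51 and 0.20, each with an SE of 0.92 to 1.06. They were saturated on both FR13A arrays of slide 1, which limits what could be seen of them. The call of PIP2-2 was lost without control replicate 1 (-3.49, adjusted p = 0.0671) or 3 (-3.32, 0.0738), without submerged replicate 1 (-2.77, 0.091) or 2 (-3.59, 0.0707), and with saturated spots left out (-3.49, 0.0682). Without slide 1 the list had 2 lower calls, and PIP1-3 and PIP2-5 had adjusted p of 0.104 and 0.0806.

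Fermentation and oxygen-handling genes included the largest rise among the named genes, that of ADH2. Of 4 measured fermentation genes 3 rose, with a list median of 2.94, against 10.0% higher among all genes. ADH2 (Os11g0210500), an alcohol dehydrogenase that turns acetaldehyde into ethanol, was at -8.32, -8.96 and -9.62 in controls, none well above background, and at 2.64, 2.67 and 0.71 in submerged leaves. The bound was at least 1117-fold (adjusted p = 2.14e-06). ADH1 (Os11g0210300) was already measured in controls, at 0.86, 0.91 and 0.79, and reached 2.72, 5.82 and 4.76, the lowest of these on the saturated slide 1. PDC1 (Os05g0469600), a pyruvate decarboxylase that feeds this step, was at -4.05, -4.74 and -4.00 in controls and -3.58, -1.38 and -0.94 in submerged leaves, so that replicate 1 moved little. PDC2 (Os03g0293500) had a difference of 1.83 ± 0.72 (adjusted p = 0.0845) and passed with the replicate block (0.033) and with saturated spots left out (2.44, 0.00279). The call of ADH1 was lost without submerged replicate 2 (2.88, adjusted p = 0.0711). That of PDC1 was lost without control replicate 2 (2.06, 0.0601) and without submerged replicate 2 (2.01, 0.0822) or 3 (1.79, 0.0581). PDC2 passed without submerged replicate 1 (2.44, 0.0435).

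The haemoglobin HB2 (Os03g0226200) went from no control array well above background to all 3 submerged arrays. Plant haemoglobins of this kind bind oxygen tightly and remove nitric oxide. HB2 was at -7.46, -8.70 and -8.72 in controls and -1.77, -0.50 and -0.65 under submergence, at least 123-fold higher (adjusted p = 1.645e-05). Its relative HB1 (Os03g0233900) was dim in both groups, with a difference of 0.64 ± 0.49 (adjusted p = 0.373). AOX1a (Os04g0600200), an alternative oxidase that passes electrons to oxygen in the mitochondrion without storing their energy, fell from -0.32, -0.36 and 0.07 to -3.85, -4.17 and -4.00. The replicates of both groups lay close together, and the difference was -3.81 ± 0.46 (adjusted p = 0.000338). None of 11 measured antioxidant genes was called, against 21.8% of all genes. With the replicate block 1 was higher, against 28.3% of all genes called in either direction. CATA (Os02g0115700) and CATB (Os06g0727200), both catalases, had differences of -0.07 and 0.33 ± 0.41. CATA spread widely, from 3.00 to 6.14 over the controls.

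The list of sucrose and starch breakdown had 7 measured members, of which 3 rose and none fell, against 10.0% higher and 11.8% lower among all genes. Without slide 1 a single member was called, higher. CIPK15 (Os11g0113700), a protein kinase that links low oxygen to starch use in germinating rice, was at -2.18, -5.38 and -6.22 in controls and 0.84, 0.35 and -1.37 in submerged leaves. Its groups did not overlap despite the wide spread of the controls, with a difference of 4.54 ± 1.04 (adjusted p = 0.00965). Sucrose synthase splits sucrose at a lower energy cost than invertase. SUS1 (Os03g0401300) rose from -2.69, -1.97 and -3.39 to 0.68, 1.03 and -0.45, and SUS4 (Os03g0340500) had a difference of 1.74 ± 0.58. The kinase SnRK1A (Os05g0530400), which acts with CIPK15, and the alpha-amylase RAmy3D (Os08g0473900) were not called, at -0.84 ± 0.48 and 1.56 ± 0.69. Among 10 glycolysis genes, the hexokinase HXK7 (Os05g0187100) rose by 2.31 ± 0.73 and the hexokinase HXK6 (Os01g0742500) differed by -1.14 ± 0.25, and the other 8 did not pass. SUT2 (Os12g0641400), which moves sucrose out of the vacuole, differed by -1.52 ± 0.36 (adjusted p = 0.0110). None of 6 starch synthesis or 2 trehalose genes was called. With the replicate block 1 of each was lower, against 28.3% of all genes called in either direction.

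Several of these sugar genes sat close to the threshold. The calls of SUS4 and HXK7 were lost without any single array other than control replicate 2, with adjusted p from 0.0553 to 0.18 and from 0.0518 to 0.132. That of SUT2 was lost without submerged replicate 2 (-1.32, 0.051). RAmy3D passed without control replicate 3 (2.42, 0.0116). HXK6 fell just under 2-fold with quantile normalization (-0.98) or median scaling (-0.99). Without slide 1 the adjusted p was 0.069 for SUS1 and 0.097 for HXK6.

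Of 10 measured gibberellin genes 4 rose, none fell and 6 did not pass, against 10.0% higher and 11.8% lower among all genes. The 4 were 2 enzymes of synthesis, a receptor and a repressor, while CPS1 and GID2, of synthesis and perception, had differences of -0.91 and -0.78 and were not called. GA20ox2 (Os01g0883800), the oxidase of late gibberellin synthesis whose loss gives semi-dwarf rice, was at -4.26, -0.87 and -3.98 in controls and at 1.62, 1.73 and 1.72 in submerged leaves. The submerged samples were nearly identical, and the spread lay in the controls, where replicate 2 was high. KAO (Os06g0110000), kaurenoic acid oxidase of the middle pathway, rose by 2.45 ± 0.36 (adjusted p = 0.00102). The receptor GID1 (Os05g0407500) rose by 2.26 ± 0.32 (adjusted p = 0.000845), from -3.14, -3.54 and -2.90 to -0.70, -0.57 and -1.53. Of the repressors of the response, SLRL1 (Os01g0646300) rose by 1.70 ± 0.50 and SLR1 (Os03g0707600) had a difference of 0.47 ± 0.19 (adjusted p = 0.0911). SLRL1 was not called without control replicate 1 (1.31, 0.103) or without submerged replicate 2 (1.49, 0.108) or 3 (1.62, 0.0633). Without slide 1 GA20ox2 had a difference of 4.15 (adjusted p = 0.0611).

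Some auxin response repressors rose as well. Aux/IAA proteins block auxin-responsive transcription until auxin triggers their breakdown, and their own genes are induced by auxin. Of 14 measured 6 rose, none fell and 8 did not pass, against 10.0% higher among all genes. IAA20 (Os06g0166500) was not well above background in controls, at -8.51, -8.92 and -8.83, and reached -2.42, -1.77 and -2.78 under submergence. It was at least 55.4-fold higher (adjusted p = 1.22e-05). IAA9 (Os02g0805100) rose by 2.47 ± 0.39, IAA1 (Os01g0178500) by 2.18 ± 0.37, IAA30 (Os12g0601300) by 1.86 ± 0.61, IAA24 (Os07g0182400) by 1.78 ± 0.39 and IAA16 (Os05g0186900) by 1.02 ± 0.26. The other 8 members had differences from -1.14 to 0.76. IAA30 lost its call without control replicate 1 (1.54, adjusted p = 0.143) or 3 (1.86, 0.0988) and without submerged replicate 2 (1.57, 0.157) or 3 (1.55, 0.12). IAA16 fell under 2-fold without submerged replicate 3 (0.85) or control replicate 1 (0.84). Without slide 1 IAA24 had an adjusted p of 0.116 and the list 4 higher calls.

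**Figure D3:**
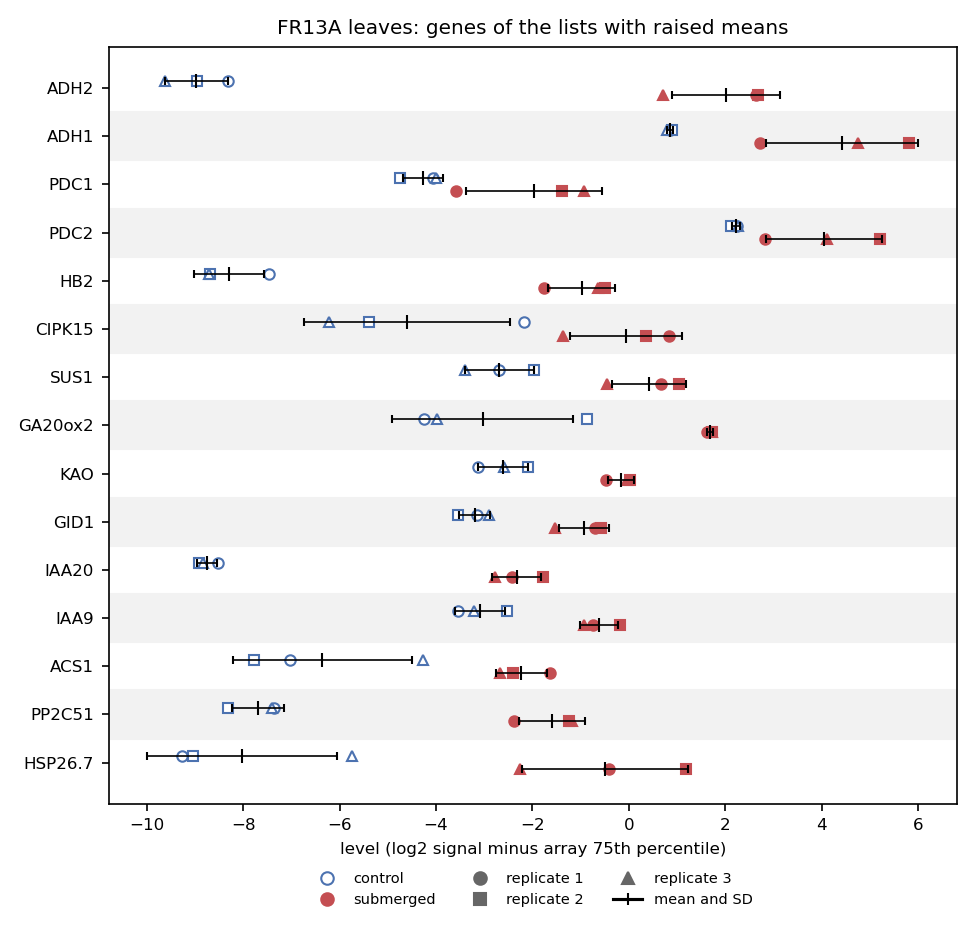
Levels on each array of 15 named genes with higher means under submergence (log2 signal minus the array's 75th percentile). Open blue symbols are controls, filled red symbols submerged samples, shapes are replicates, and bars give the mean and SD of 3 arrays. The groups do not overlap in any gene shown, and replicate 1 of PDC1 and PDC2 lies closest to the controls.

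Of 9 measured ethylene genes 3 rose, 1 fell and 5 did not pass, against 10.0% higher and 11.8% lower among all genes. ACS1 (Os03g0727600), an ACC synthase of the step that commits to ethylene, was at -7.02, -7.78 and -4.26 in controls, 1 of them well above background, and at -1.64, -2.40 and -2.66 under submergence. The difference of 4.12 ± 0.94 (adjusted p = 0.00931) is for its brighter probe, and the other gave 1.61. ACO1 (Os09g0451400), the oxidase that completes synthesis, was dim in both groups, at -0.64 ± 0.64. Among the receptors, which hold the pathway off until they bind ethylene, ERS2 (Os05g0155200) fell from -2.75, -4.13 and -4.90 to -8.87, -8.46 and -7.65, with a difference of -4.40 ± 0.71 (adjusted p = 0.00163). It was well above background on 1 submerged array, and with normexp its difference was -0.10 (adjusted p = 0.957). A second receptor, ETR2 (Os04g0169100), rose by 1.41 ± 0.35 (adjusted p = 0.0135). Downstream, EIN2 (Os07g0155600) had a difference of 0.97 ± 0.22 (adjusted p = 0.00909), just under 2-fold and so not called, and the transcription factor EIL1 (Os03g0324200) rose by 1.22 ± 0.37. EIN2 passed 2-fold without control replicate 1 (1.05) or 2 (1.02), without submerged replicate 3 (1.02), with the arrays scaled to their medians (1.12) and as a mean over its probes (1.04). The call of EIL1 was lost without control replicate 1 (0.83, adjusted p = 0.11) or 2 (1.32, 0.0516) and without submerged replicate 2 (1.01, 0.128) or 3 (1.24, 0.0582). That of ETR2 was lost without control replicate 1 (1.19, 0.0529) or submerged replicate 2 (1.26, 0.059). Without slide 1 no ethylene gene was called higher, and ACS1 had a difference of 3.49 (0.139). None of the 7 measured ERF and DREB factors was called. With the replicate block 2 were lower, against 28.3% of all genes called in either direction.

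Of 18 measured jasmonate genes 5 fell, 2 rose and 11 did not pass, against 11.8% lower and 10.0% higher among all genes. JAZ proteins repress jasmonate-responsive genes and are themselves induced by the hormone. JAZ8 (Os09g0439200) was at 0.16, -0.02 and -0.01 in controls and -2.84, -2.29 and -2.50 in submerged leaves, a tight pair of groups with a difference of -2.59 ± 0.36 (adjusted p = 0.00069). JAZ11 (Os03g0180900) differed by -3.61 ± 0.81 and JAZ6 (Os03g0402800) by -1.69 ± 0.39. JAZ3 (Os08g0428400) instead rose by 1.65 ± 0.22 (adjusted p = 0.000556), from -0.53, -0.23 and -0.16 to 1.30, 1.48 and 1.23. OPR7 (Os08g0459600), the reductase known for jasmonate synthesis in rice, fell from levels of 2.67, 2.57 and 2.44 by 1.46 ± 0.24, with all submerged values below the controls (adjusted p = 0.0019). OPR1 (Os06g0216300), a reductase of the same family, was well above background on 2 control arrays and on no submerged array, at least 10.52-fold lower (adjusted p = 0.00685). With normexp its difference was 0.40 (adjusted p = 0.819). COI1b (Os05g0449500), a receptor component, rose by 1.25 ± 0.42. Its call was lost without any one array other than submerged replicate 1 (adjusted p from 0.064 to 0.168). Without slide 1 JAZ11 had an adjusted p of 0.0613.

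Stress-linked transcription factors and chaperones also changed. NAC5 (Os11g0184900), which is induced by drought and abscisic acid in rice, fell from 1.72, 1.25 and 3.01 to -1.03, -1.13 and -1.55 (adjusted p = 0.00174). NAC2 (Os04g0460600) had a difference of -2.47 ± 0.40 and NAC6 (Os01g0884300) one of -0.33 ± 0.55. HSP26.7 (Os03g0245800), a small heat shock protein of the chloroplast, was at -9.27, -9.05 and -5.75 in controls, 1 of them well above background, and at -0.41, 1.18 and -2.26 in submerged leaves. The difference of 7.52 ± 1.13 (adjusted p = 0.00108) was larger than the wide spread within each group. The cytosolic small heat shock protein HSP16.9A (Os01g0136100) went the other way, at -2.93 ± 0.98, while HSP101 (Os05g0519700) and the heat shock factors HSFA2a (Os03g0745000) and HSFA2c (Os10g0419300) did not pass. HSP16.9A lost its call without control replicate 2 (-3.26, adjusted p = 0.0631) or 3 (-2.02, 0.164) and without submerged replicate 1 (-2.43, 0.156) or 2 (-3.02, 0.11). The call was also lost under quantile normalization (0.0689), scaling to the median (0.065) and the authors' value table (0.0682). The same held with no filter on dim probes (0.0647), with FR13A arrays alone (0.0616) and with normexp (0.347). None of 4 WRKY factors was called, against 21.8% of all genes. On the defence list, the chitinase CHT1 (Os06g0726200) rose by 2.53 ± 0.44 and NPR1 (Os01g0194300), the coactivator of salicylic acid responses, by 1.62 ± 0.28. The 8 probes of CHT1 ranged from -1.01 to 2.94.

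Of 13 measured cell wall genes 4 fell, 1 rose and 8 did not pass, and without slide 1 2 were called lower and 1 higher. Among all genes 11.8% were lower and 10.0% higher. The cellulose synthases of the primary wall, CESA1 (Os05g0176100) and CESA5 (Os03g0837100), had differences of -1.90 ± 0.52 and -1.24 ± 0.30, and CESA4 (Os01g0750300), of the secondary wall, one of -2.76 ± 0.69. CESA4 was well above background on 1 of 3 submerged arrays, so its low values are uncertain, and with normexp its difference was 0.50. The expansin EXPA1 (Os04g0228400), which loosens walls for growth, was not well above background on any submerged array, at least 6.16-fold lower (adjusted p = 0.000363). With normexp its difference was 0.94 (adjusted p = 0.522). EXPA8 (Os01g0248900) was not well above background in controls and at least 3.57-fold higher (adjusted p = 0.000918). None of 6 measured cell division genes was called. BRD1 (Os03g0602300), the oxidase of brassinosteroid synthesis, was the single called gene of 8 on its list, at -1.30 ± 0.44, and was lost without any array other than control replicate 3 (adjusted p from 0.0502 to 0.16) and also under quantile normalization (0.0579), scaling to the median (0.0574) and 6 other settings. The call of CESA1 was lost without control replicate 1 (-1.54, 0.0806) or submerged replicate 1 (-1.59, 0.0817) or 2 (-1.66, 0.0879). CESA4 lost it without submerged replicate 1 (-2.24, 0.0583), and CESA5 without control replicate 1 (-0.99, 0.0514) or submerged replicate 2 (-1.06, 0.061).

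The photosynthetic apparatus gave few calls. Among all genes 10.0% were higher and 11.8% lower, and 28.3% were called in either direction with the replicate block. None of 9 genes of light harvesting, photosystems, electron carriers and carbon fixation passed. Of the 9, 8 were saturated on both FR13A arrays of slide 1, and SE reached 1.57, so that even sizeable changes would not have passed. Chlorophyll synthesis had 1 call each way among 9 genes, CHLD (Os03g0811100), a subunit of magnesium chelatase, at 1.28 ± 0.38 and PORB (Os10g0496900), a protochlorophyllide reductase, at -1.29 ± 0.37. SGR (Os09g0532000), the stay-green protein that starts chlorophyll breakdown, was at 2.46, 2.58 and 2.28 in controls and 0.92, -0.62 and 0.97 in submerged leaves, a difference of -2.02 ± 0.46 (adjusted p = 0.00949). Blocking on the replicate number gave 3 lower calls among the 3 measured genes of chlorophyll breakdown, against 1 without it. The same held for nitrogen assimilation, where GS1-2 (Os03g0223400), a cytosolic glutamine synthetase, was 1 of 5 called, at -1.13 ± 0.32, and 3 were called with the block. CHLD lost its call without control replicate 1 (1.23, adjusted p = 0.0815) or 3 (1.12, 0.0962) or submerged replicate 2 (1.24, 0.092) or 3 (1.16, 0.0732). PORB and GS1-2 lost theirs without control replicate 1 or 3 or submerged replicate 1 or 2, with adjusted p from 0.0773 to 0.0988 and from 0.0603 to 0.0986. GS1-2 fell short of 2-fold under scaling to the median (-0.98).

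Among the remaining lists, calls were few. Of all genes 10.0% were higher and 11.8% lower, and 28.3% were called in either direction with the replicate block. CHI (Os03g0819600), chalcone isomerase of flavonoid synthesis, fell from 2.86, 3.51 and 3.19 to -0.44, 0.84 and 1.90, a difference of -2.42 ± 0.56 (adjusted p = 0.00978). The flowering repressor DTH8 (Os08g0174500) differed by -2.26 ± 0.45 (adjusted p = 0.00494). PHYA (Os03g0719800), a phytochrome, rose by 1.31 ± 0.35, the phosphate transporters PT1 (Os03g0150600) and PT2 (Os03g0150800) by 1.63 ± 0.41 and 1.57 ± 0.39, and the cytokinin response regulator RR6 (Os04g0673300) by 1.50 ± 0.49. None of 8 clock genes was called. LHY (Os08g0157600) had a difference of 0.22 ± 1.58, and PRR1 (Os02g0618200) one of 1.33 ± 0.86 (adjusted p = 0.281) that passed with the replicate block (0.00658). None of 7 diterpenoid, 5 iron or 2 reference genes was called. With the replicate block 1 diterpenoid gene was higher, and of the iron genes 1 was higher and 1 lower. The reference gene ACT1 (Os03g0718100) had a difference of -0.44 ± 0.32 (adjusted p = 0.349). PHYA lost its call without control replicate 1 (adjusted p = 0.0648) or 3 (1.14, 0.0694) or submerged replicate 2 (1.07, 0.0842). PT1 lost it without submerged replicate 1 (1.31, 0.0567), PT2 without submerged replicate 2 (1.49, 0.0532), and RR6 without any array other than control replicate 1 (adjusted p from 0.0575 to 0.167). DTH8 had an adjusted p of 0.0607 without slide 1.

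The array also carries 510 probes named for microRNAs, small RNAs that silence target messages, with separate probes for the mature sequence and for the 5' and 3' parts beside it in the longer precursor. Of these, 145 were measured. Of the measured probes 9 were called higher (6.21%) and 3 lower (2.07%), smaller shares than the 10.0% and 11.8% among all genes. Of 31 measured probes for mature sequences 1 was called, and of 114 for the parts beside them 11 were. The 12 are named here because they were called, outside the rule for named genes. Whether they read the precursor transcript or the mature small RNA was not tested. Both precursor probes of osa-miR169a on chromosome 1 rose. The 5' probe was at -8.00, -8.29 and -8.22 in controls, none well above background, and at -2.17, -1.54 and -2.07 in submerged leaves, at least 67.7-fold higher (adjusted p = 2.25e-07). The 3' probe rose by 3.02 ± 0.26 (adjusted p = 4.62e-05). None of the 21 other measured probes of the miR169 family was called, and they ranged from -0.95 to 0.80. This family is known to act on NF-YA transcription factors.

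Both precursor probes of osa-miR393b, whose family acts on auxin receptor messages, rose as well. The 3' probe went from -6.79, -4.43 and -5.18 to -2.79, -2.23 and -2.39, a difference of 3.00 ± 0.69 (adjusted p = 0.00998), and the 5' probe differed by 2.99 ± 0.62. The measured 5' probe of osa-miR393 had a difference of 0.13 ± 0.42. Of the 3 lower probes, the 5' probe of osa-miR528 fell from -5.64, -3.40 and -3.94 to -6.85, -6.76 and -7.12, a difference of -2.58 ± 0.64 (adjusted p = 0.0142), while its 3' probe, at -1.09 ± 0.41, did not pass. The mature probe of osa-miR528, with a difference of 0.17 ± 0.40, was not called either. The 3' probe of osa-miR162b, whose family acts on the message of the enzyme that cuts out small RNAs, differed by -2.06 ± 0.39, and that of osa-miR159f by -1.84 ± 0.56. They were well above background on 1 and 2 of the 3 submerged arrays, so their low values are uncertain. The other higher probes were the 3' probes of osa-miR160b and osa-miR156h, the 5' probes of osa-miR398b and osa-miR166b, and the mature probe of osa-miR399i, by 1.07 to 1.29. The mature probes of osa-miR160b, osa-miR398b and osa-miR166b had differences of -0.29, 0.31 and 0.47 and were not called. Without single arrays the calls of these 5 higher probes and of osa-miR159f were lost, with the highest adjusted p at 0.141 for osa-miR160b, 0.118 for osa-miR398b, 0.0575 for osa-miR166b, 0.094 for osa-miR399i and 0.125 for osa-miR159f. The osa-miR156h probe fell under 2-fold without submerged replicate 3 (0.83). Those of osa-miR169a, osa-miR393b, osa-miR162b and osa-miR528 were kept without any single FR13A array. With normexp background correction the calls of osa-miR169a and osa-miR393b were kept, but the sign turned for osa-miR162b (1.32, adjusted p = 0.383), osa-miR528 (0.16, 0.926) and osa-miR159f (0.84, 0.505).

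**Figure D4:**
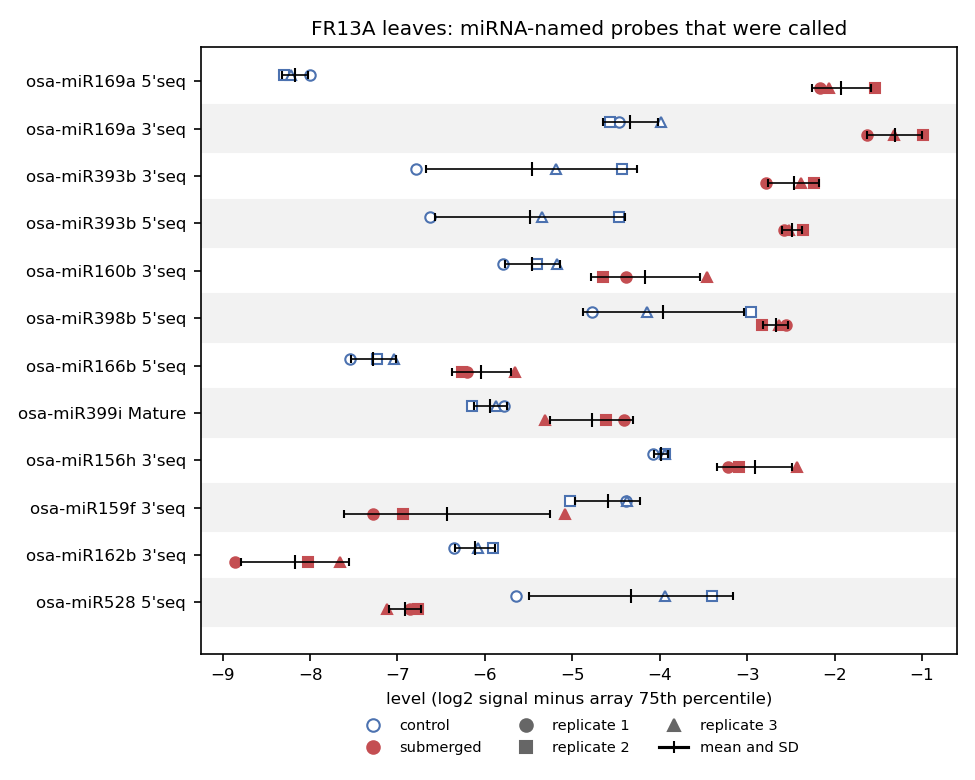
Levels on each array of the 12 miRNA-named probes that were called (log2 signal minus the array's 75th percentile), sorted by log2 fold change. Open blue symbols are controls, filled red symbols submerged samples, shapes are replicates, and bars give the mean and SD of 3 arrays. Both osa-miR169a probes and both osa-miR393b probes lie well to the right of their controls, and osa-miR528 5'seq lies to the left.

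Some of the strongest changes lay at loci outside the name lists written for this comparison. Whether the gene table names these loci was not checked. Among genes well above background on all 6 FR13A arrays, Os11g0622000 rose by 8.61 ± 0.42, from -5.33, -5.44 and -6.68 to 2.40, 3.27 and 2.72, and Os05g0473000 rose by 8.21 ± 0.72. Os11g0209000 fell from 2.44, 4.87 and 4.56 to -3.01, -3.68 and -2.07, a difference of -6.88 ± 0.75, and Os08g0249900 had one of -6.62 ± 0.82. Os05g0473000 was saturated on 1 submerged array and Os11g0209000 on 1 control array, which limits the values of both. Genes whose probes the array puts in a class named COMBINER, a term that the sources used here do not define, included 232 that rose among 1370 tested, and 7.66% fell. Of 16686 genes in the class named mRNA, 9.75% rose and 12.4% fell. By chromosome the share called higher ran from 9.30% on chromosome 1 to 11.1% on chromosome 12, and the share called lower from 9.82% on chromosome 12 to 13.5% on chromosome 1.

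The response of FR13A was then set against that of Goda Heenati, whose submerged shoot tips lay 45.9 ± 2.9 cm below the surface, so that depth and genotype are not separated. The test of the difference between the responses called 21 of 22724 genes (0.0924%), 9 higher and 12 lower in FR13A. An unadjusted p under 0.05 was found for 1022 genes, a share below the 0.05 that would arise with no true difference. The blocked fit called 83 (0.365%). No named gene was among them in either fit. TIP1-2 differed by -8.24 ± 0.53 in FR13A and -6.71 ± 0.53 in Goda Heenati, IAA9 by 2.47 ± 0.39 and 2.48 ± 0.39, and AOX1a by -3.81 ± 0.46 and -2.88 ± 0.46. The values lay further apart for SGR, at -2.02 ± 0.46 and -0.44 ± 0.46, for JAZ11, at -3.61 ± 0.81 and -1.12 ± 0.81, and for IAA30, at 1.86 ± 0.61 and -0.38 ± 0.61. The difference between the responses was -1.58 ± 0.65 for SGR, -2.49 ± 1.14 for JAZ11 and 2.24 ± 0.87 for IAA30, and none passed (adjusted p at least 0.903, or at least 0.263 with the block). With these SE the test does not show that the genotypes responded alike.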

How the data were processed

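Per the labels' protocols, total RNA was amplified to Cy3-labelled cRNA, and the authors read one-colour Agilent rice arrays with Agilent Feature Extraction 10.5.1.1, per the submitters' processing notes. The deposited array files hold spot intensity on a linear scale, with the background already removed in the processed signal per the file headers. A deposited table of the authors' log2 values served as an alternative. Its normalization was not given in the sources used here.

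Control spots, 59 further probes named as controls and outlier spots were left out of 45151 spots per array. The log2 processed signal minus the array's 75th percentile was averaged over spots of a probe. Probes entered if 1 group or more had them well above background on each of its 3 arrays (33038 probes), and the brightest stood for its gene, giving 22724 genes (22571 loci and 153 probes without one). A limma 3.58.1 fit (lmFit, eBayes, R 4.3.3) of 4 group means over 12 arrays left 8 residual degrees of freedom. It was tested on simulated data. A bound ("at least N-fold") replaced each dim value by the array's lowest well-above-background signal wherever that was higher, and carries no sampling error. The number of arrays limits the precision.

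The members and lists were chosen with earlier results of these data known. Of 433 pairs of name and locus, the gene table (assembly ASM3414082v1) held 291 on the same chromosome, and the others were left out. Per list, the called members with the largest changes in each direction, at most 5, were named. Besides these, a fixed set of 34 names was given, of which 25 were measured. The loci with the largest changes outside the 433 pairs were also given, and whether the gene table names those loci was not checked. Members named beyond this were chosen after their values were seen. Same-numbered FR13A arrays, which share a slide per the file headers, deviated together from their group means (r from 0.367 to 0.546). Other pairs gave -0.331 to -0.065, but centring on group means itself pushes these negative. The numbers thus pair the arrays, and a shared slide and a pairing of the plants cannot be told apart. The main fit did not use the pairing, whereas the replicate block did. The alternatives were other normalizations and filters, the block, other thresholds and left-out arrays. The normexp alternative used the median spot signal, because the mean signal was not in the columns used here.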

Additional observations from a re-analysis of the deposited data

Results flagged for a closer look

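The difference between the responses of FR13A and Goda Heenati was called for 21 genes by the interaction term of the limma fit, and that count is given for a closer look because it is a difference between groups under the same treatment. Of these, FR13A had the higher difference in 9 and the lower in 12, and none was a named gene.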

How the results depend on the processing

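The 4960 calls stayed within 1.5 times under the other normalizations and filters, except with normexp background correction (1859, with 1365 higher and 494 lower), at an adjusted p under 0.01 (2972, with 1314 and 1658) and without slide 1 in all groups, a choice made after seeing the data (2579, with 1209 and 1370). On FR13A submerged replicate 2 the normexp values correlated with the processed signal at r = 0.764, against at least 0.973 on the other arrays, and 728 of the 4960 calls changed sign. Quantile normalization, median scaling and the authors' value table reversed none of them. Scaling to the array median moved the median difference of all genes from 0.05 to 0.20 and the share of calls that were higher from 45.9% to 56.3%, and normexp moved them to 0.57 and 73.4%. Leaving out single FR13A arrays gave 3389 to 5669 calls, 1486 to 2650 higher and 1903 to 3019 lower. The fewest came without submerged replicate 2. With the replicate number as a block there were 6421 calls, which included 4957 of the 4960.

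The 21 calls for the difference between the responses became 44 with quantile normalization, 48 with the authors' value table, 83 with the replicate block, 6 at an adjusted p under 0.01, 1 among probes above background on all 12 arrays and 0 with normexp or without slide 1, and 7 to 26 without single FR13A arrays. The lowest, 7, came without control replicate 1, with 11 without control replicate 2 or 3 and 13 without submerged replicate 2. No named gene was called for it in the main fit.

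Of the 67 called genes named by the rule, 41 kept their call without each single FR13A array, 30 lost it without slide 1, and 34 with normexp. Direction reversed with normexp for CESA4 (0.50), EXPA1 (0.94), LEA3 (0.11), OPR1 (0.40) and the uncalled NCED3 (0.0379) and ACO1 (1.69). Other reversals were of uncalled genes near 0. CATA became 0.0778 with median scaling and ran from -1.02 to 0.78 without single FR13A arrays. ABA8ox1 ran from -0.29 to 1.84 and was -0.39 without slide 1, and LHY ran from -1.16 to 1.22 and was -0.26 as a mean over probes. With FR13A arrays alone 16 of the 67 calls were lost. Of the genes named by the rule, PDC2 and PRR1 alone changed their call with the replicate block. Saturation on slide 1 limits the brightest genes, and 1393 genes were saturated on at least 1 FR13A array.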
